A study of Mus musculus with 10 samples.

Results

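The Mef2 genes were followed through their splice forms in mouse neuroblastoma cells and in cultured neurons. All splicing events that the deposited tables assign to Mef2a, Mef2c or Mef2d were taken, which gave 137 of the 661162 events measured in N2A cells. Of these, 41 belonged to Mef2a, 39 to Mef2c and 57 to Mef2d. The same genes held 2 rows of the authors' list of neural microexons and 3 of the 2469 rows of their microexon table for neurons. N2A is a mouse neuroblastoma line. It was transfected for 72 h with 40 nM of an siRNA pool, either non-targeting (siNT, n = 3) or against Qk (siQk, n = 3), with 100000 cells seeded per well. Qk encodes Quaking, an RNA-binding protein that regulates splicing, and the comparison asks which splice choices differ when it is depleted. Glutamatergic neurons differentiated from mouse embryonic stem cells were harvested on day 7, untreated (n = 2) or after 12 h in 100 uM cycloheximide (n = 2), an inhibitor of translation that also blocks nonsense-mediated decay. The labels gave no genotype other than the lines themselves. They call the replicates biological, without saying whether the cultures were separate, so the p-values measure the spread between these samples.

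Mef2 proteins are MADS-box transcription factors that bind AT-rich sites and control genes of muscle and of activity-dependent programs in neurons. They bind DNA through an amino-terminal domain that the paralogs share, and they are held inactive by class IIa histone deacetylases and activated by p38 and other kinases. Their transcripts differ at an α region, where either of a pair of exons is used in place of the other, and at the β microexon, a short exon in the transactivation region that is included mainly in neurons and striated muscle and adds acidic residues.

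The β microexons are printed first, because they are the only Mef2 exons in the neuron table. Capitals mark the microexon, and lower case marks the last 20 bases of the exon before it and the first 20 bases of the exon after it, from the GENCODE M21 transcripts on mm10, written 5′ to 3′ along the transcript. The Mef2a exon is chr7:67244521-67244544 on the minus strand. The Mef2c exon is chr13:83654598-83654621 and the Mef2d exon is chr3:88161781-88161801, both on the plus strand.
Mef2a β: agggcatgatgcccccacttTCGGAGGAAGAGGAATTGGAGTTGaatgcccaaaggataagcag
Mef2c β: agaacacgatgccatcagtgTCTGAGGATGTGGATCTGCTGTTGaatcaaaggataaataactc
Mef2d β: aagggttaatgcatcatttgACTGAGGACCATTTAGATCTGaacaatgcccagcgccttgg
The exons of Mef2a and Mef2c have 24 nt and that of Mef2d has 21 nt. All 3 are coding, begin on a codon boundary, have lengths divisible by 3 and contain 0 stop codons, so that skipping leaves the reading frame intact. Codons that begin with GA, all of which encode acidic residues, numbered 5 of 8 in Mef2a, 3 of 8 in Mef2c and 3 of 7 in Mef2d. Aligned to each other, the exons of Mef2a and Mef2c matched at 17 bases (70.8%), those of Mef2c and Mef2d at 15 (71.4%) and those of Mef2a and Mef2d at 13 (61.9%), each as a share of the shorter exon.

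In the α region, the exons of each gene lie next to each other. In Mef2a, on the minus strand of chromosome 7, the first has 132 nt (chr7:67268269-67268400) and the second has 138 nt. The pair matched at 75 bases, 56.8% of the shorter exon. The second α exon of Mef2a matched that of Mef2c at 77.5% and that of Mef2d at 70.4%, so it was closer to the second exons of its paralogs than to its own partner. The second exon of Mef2d matched those of Mef2a and Mef2c at 70.4% and 66.7% and its own partner at 54.8%. The first exons did not all follow this, since that of Mef2a matched those of Mef2c and Mef2d at 71.2% and 56.8% and the second exon of Mef2c at 63.6%.

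The knockdown was seen in Qk coverage, the junction reads of its exons as a rate scaled to library size (CPM). It averaged 85.4 ± 4.71 CPM for siNT (SD, n = 3) against 11.2 ± 2.60 CPM for siQk (SD, n = 3) (log2 fold change -2.91, SE 0.16, limma adjusted p = 0.000483). Between 26595944 and 80481173 exon-event reads were counted in each N2A library, and no depth is known for the neurons. Of 12 neuronal markers, 11 were measured (all but Tubb3), and 8 had at least 1 CPM in every N2A sample. The measured neuronal markers summed to 1190 to 1200 CPM in siNT and 1300 to 1410 CPM in siQk. Of 8 muscle markers, 4 had at least 1 CPM in every sample, and the defining factors Myod1 and Myf5 were at 0 in all samples. The summed muscle level was 463 to 558 CPM in siNT and 537 to 616 CPM in siQk, and Myh3, an embryonic myosin, made up 450 to 543 and 509 to 589 CPM of it. Of the 4 astrocyte markers Slc1a3 and Aqp4 were at 0, and of the 4 oligodendrocyte markers Mog and Sox10 were at 0 in all samples while the other 2 had at least 1 CPM in every sample. Summed levels were at most 0.217 CPM for astrocytes and ran from 3.23 to 4.96 CPM for oligodendrocytes. The 4 fibroblast markers summed to 1.37 to 2.30 CPM in siNT and 1.75 to 3.53 CPM in siQk, and the 3 measured blood and microglia markers to at most 0.3 CPM. The part of other cells in the results was not tested. In bulk RNA, fewer cells with a transcript and less of it per cell cannot be told apart.

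Mef2a and Mef2d were expressed in N2A cells and Mef2c was not detected. Values are given for samples 1, 2 and 3 of each group in that order. Coverage of Mef2a was 104, 100 and 97.0 CPM with siNT and 95.2, 90.3 and 84.6 CPM with siQk. Coverage of Mef2d was 153, 151 and 173 CPM in siNT and 141, 144 and 145 CPM in siQk. For both genes every siQk sample was below every siNT sample, by a narrow margin, as in 10.3% of all tested genes. The log2 fold changes were -0.16 (SE 0.08) for Mef2a and -0.14 (SE 0.08) for Mef2d, with limma adjusted p of 0.306 and 0.343, beside 4.21% of 10851 genes called at an adjusted p under 0.05. Neither gene passed the test.

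Mef2c, the paralog best known in cortical neurons, gave 0 junction reads over its 29 exon and splice site events in each of the 6 N2A samples. A count of 3 reads, the limit that 0 allows for counting error, corresponds to 0.0373 to 0.113 CPM here. Reads within Mef2c introns came to 0.2 in siQk sample 2 and 1.0 in siQk sample 3 and to 0 in the other samples. All 39 Mef2c events therefore had too few reads, and no Mef2c splice form is described in N2A cells. The remaining paralog, Mef2b, which is not among the genes chosen, stood at 43.4 ± 6.93 CPM with siNT and 33.3 ± 4.54 CPM with siQk (SD, n = 3 each; limma adjusted p = 0.188).

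Percent spliced in (PSI) is the percentage of transcripts that carry an exon, intron or site, estimated from junction reads. For each event the authors deposited the junction reads as counted and a pair of inclusion and exclusion reads. The pair adds up to the junction reads but divides them in the ratio of the PSI, which for the Mef2 microexons lay above the plain junction share, by a correction that the sources do not describe. The fits used the pair, and beside each microexon the share from the junction reads as counted is also given, with the mean of both inclusion junctions set against the skipping junction (a choice made after the data were seen). For the Mef2 exons of 57 nt or more, both agreed within 0.1 points. An event was tested if it had at least 10 reads in each N2A sample and a mean PSI from 2 to 98, which 18 Mef2 events did, 7 in Mef2a and 11 in Mef2d. The others were nearly always included (11 in Mef2a and 16 in Mef2d), nearly always excluded (15 and 26) or too thinly covered (8 in Mef2a, 4 in Mef2d and the 39 of Mef2c). Among the nearly always included were 8 Mef2a exons with PSI of 97.4 to 100 and 7 Mef2d exons with PSI of 95.8 to 100 in every sample. The 10 Mef2a introns and 6 Mef2d introns below the limit were retained at no more than 2.68% and 2.74% in any sample.

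The 18 tested events include both forms of an alternative 5′ site pair in Mef2a and of another in Mef2d, and the forms of a pair mirror each other. Of the 18 tested events, 0 were called changed in siQk, at a limma adjusted p under 0.05 with a difference of at least 10 points. Their adjusted p ran from 0.303 to 1.0 and the largest difference by deposited PSI was 8.91 points. Across all genes the calls made up 1.18% of 12930 exons, 0.113% of 17664 introns, 0.107% of 7498 alternative 5′ and 0.101% of 9943 alternative 3′ splice sites. Of 410 tested microexons 7.32% were called. At an unadjusted p under 0.05, 3 of the 18 passed (2 exons and 1 intron), beside 9.04% of all exons, 5.02% of introns and 5.13% of 5′ sites. In 4 of the 18, 2 exons and 2 introns, the groups did not overlap and siQk was higher, which was the case for 7.95% of all exons, 3.65% of introns and 5.43% of 5′ sites. With either direction counted, the groups did not overlap in 14.6% of exons, 10.4% of introns and 10.7% of 5′ sites. The 3 and the 4 Mef2 events both include a 20 nt Mef2a exon whose mean PSI reached 2 only through the siQk samples. Both also include the Mef2d β microexon and the 1576 nt intron around it, which are not independent. The counts were not tested against these shares.

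**Figure D1:**
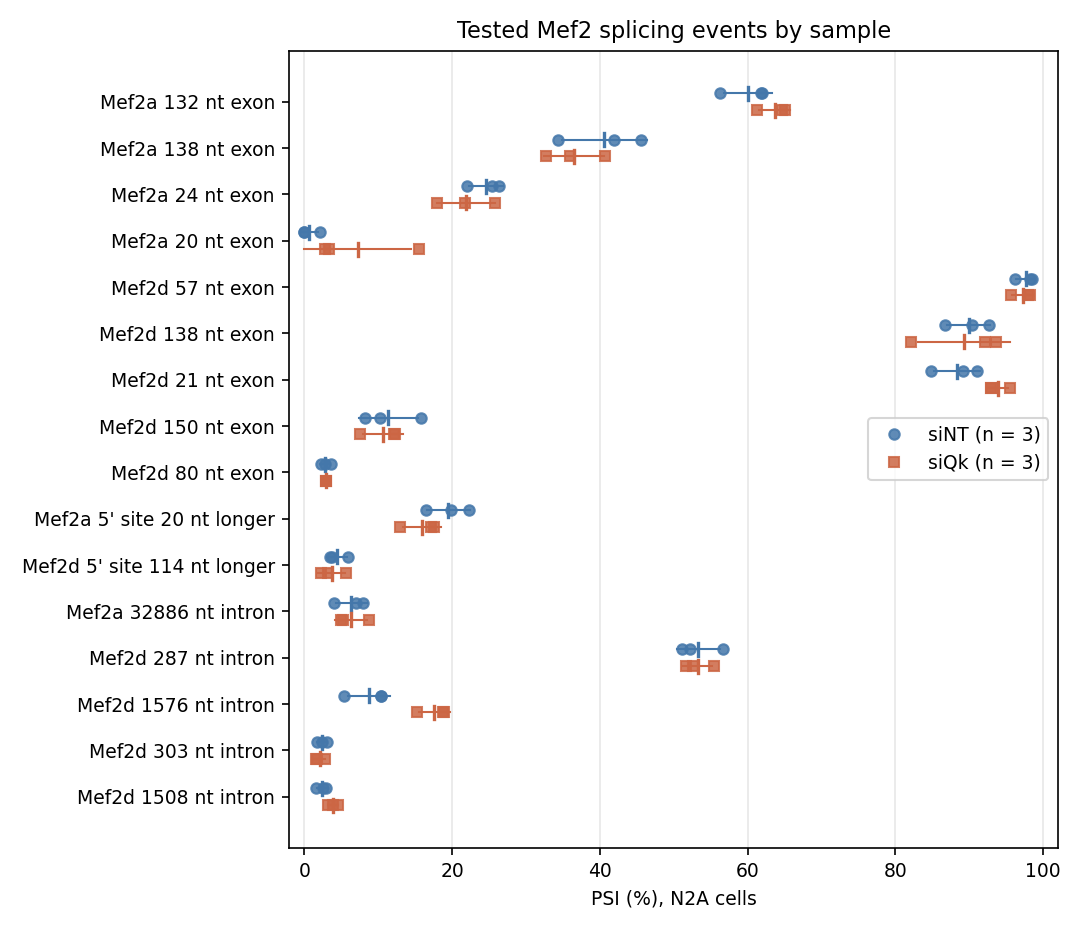
PSI in percent (x axis) of the tested Mef2 events in each N2A sample, with siNT as circles and siQk as squares, the mean as a vertical tick and 1 SD as a horizontal line (n = 3 each). Of each pair of alternative 5′ sites, the longer form is drawn, and only the Mef2d 21 nt exon, the Mef2a 20 nt exon and the Mef2d introns of 1576 and 1508 nt show groups that do not overlap.

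The β microexon of Mef2d was included in most Mef2d transcripts of N2A cells. Its PSI was 89.1, 91.1 and 84.9 in siNT and 95.5, 93.0 and 93.0 in siQk. All siQk samples were above all siNT samples. Mean PSI was 88.4 ± 3.15 (SD, n = 3) in siNT and 93.8 ± 1.43 (SD, n = 3) in siQk, a difference of 5.48 points. The log2 ratio of the deposited inclusion and exclusion reads differed by 0.98 (SE 0.32), with an unadjusted limma p of 0.0119 and an adjusted p of 0.303. In siNT sample 3, the one with the lowest PSI, 281 and 366 reads spanned the upstream and downstream junctions of the microexon and 144 skipped it. In siQk sample 1, the one with the highest PSI, these were 94, 177 and 16 reads. From junction reads as counted, inclusion was 76.6%, 80.3% and 69.2% in siNT and 89.4%, 84.2% and 84.1% in siQk, again with no overlap. On that scale the means were 75.4% and 85.9%, 10.57 points apart, with a limma adjusted p of 0.0999, so the size of the difference turned on the correction and the event was called on neither scale. The authors' neural microexon list gives the replicates combined as 88.7% in siNT and 93.5% in siQk, and classes this microexon as not changed by Qk.

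The β microexon of Mef2a was mostly skipped in the same cells. Its PSI was 25.4, 26.4 and 22.0 in siNT and 21.8, 17.99 and 25.9 in siQk. The groups overlapped, with siQk sample 3 above siNT samples 1 and 3. Mean PSI was 24.6 ± 2.28 (SD, n = 3) in siNT and 21.9 ± 3.95 (SD, n = 3) in siQk, with a log2 ratio difference of -0.22 (SE 0.25) and a limma adjusted p of 0.856. From junction reads as counted its means were 13.7% and 12.0% (limma adjusted p = 0.869). The authors' list gives 24.6% and 22.5%, also in the class of no change. It places an ACTAAY motif, the core of the Quaking binding site with Y for C or T, downstream of the Mef2a microexon and none beside the Mef2d microexon. In that list 15 microexons (6.6%) have the motif downstream, 27 (11.9%) have it upstream and 184 (81.4%) have none. The sources used here do not give the window searched.

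Within every N2A sample the Mef2d microexon exceeded that of Mef2a by a wide margin. The gap was 63.7, 64.7 and 62.8 points in siNT and 73.7, 75.0 and 67.1 points in siQk. The lowest siQk gap was above the highest siNT gap, as differences between the values just given and with no test of their own. From junction reads as counted the siNT means of the microexons were 75.4% and 13.7%.

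In untreated neurons the 3 β microexons stood close together. The header of the neuron table does not say which PSI column is the untreated one, and the first was taken as such because the control comes first in the table's name, so every direction given for neurons rests on that reading. The authors' deposited table, with replicates combined, gives PSI of 87.4% for Mef2a, 84.9% for Mef2c and 87.6% for Mef2d. After cycloheximide it gives 45.6% for Mef2a, 63.0% for Mef2c and 77.2% for Mef2d. All 3 values were lower in the treated neurons, by very different amounts. Cycloheximide minus untreated, the difference of these values from the authors' deposited table was -41.8 points for Mef2a with a probability of 1.0, -21.96 points for Mef2c with a probability of 0.864 and -10.43 points for Mef2d with a probability of 0.954. At a difference of at least 10 points and a probability of at least 0.9, Mef2a and Mef2d were counted as lower and Mef2c missed the probability. By that rule 7.17% of the 2469 rows were lower and 2.23% were higher.

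The share of transcripts that skip the microexon makes the order plainer. From the authors' deposited table, skipping of Mef2a was 12.6% untreated and 54.4% with cycloheximide, a ratio of 4.33. For Mef2c it was 15.1% and 37.0%, a ratio of 2.46, and for Mef2d 12.4% and 22.8%, a ratio of 1.84. Ordered from the greatest fall, Mef2a was at place 41 of the 2469 rows, Mef2c at 121 and Mef2d at 242. Among the 262 rows that started between 80% and 95%, a range picked after the Mef2 values were seen, 24.4% were lower by the same rule. With replicates combined there is no spread to set these differences against, and 2 samples set against 2 allow no exact permutation p under 0.33.

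**Figure D2:**
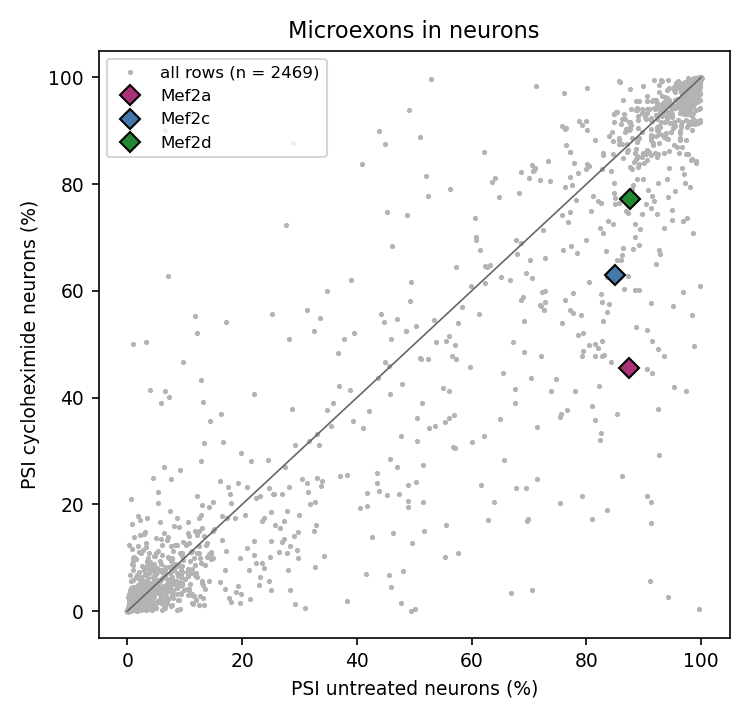
PSI in percent of each microexon in untreated neurons (x axis) and cycloheximide-treated neurons (y axis) from the authors' deposited table, 1 point per row, with the line of equal values. The 3 Mef2 β microexons start between 84.9% and 87.6% and lie below the line at 45.6% (Mef2a), 63.0% (Mef2c) and 77.2% (Mef2d).

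Set side by side, N2A cells and untreated neurons stood far apart in the Mef2a microexon and close together in that of Mef2d by the deposited PSI. Mef2a stood at 24.6% in siNT and 87.4% in untreated neurons, 62.8 points apart, and Mef2d at 88.4% and 87.6%, 0.73 points lower in neurons. By the junction reads as counted, N2A siNT cells had 13.7% and 75.4%, so the closeness of the Mef2d values depends on the correction. The values come from different software and from different experiments, so the cell type and the method cannot be told apart and no test was made. The 595 microexons with values in both had no limit on mean PSI, and many were nearly always included or excluded in both. Over the 595, the median difference was 0.02 points. Neurons were higher by at least 10 points in 23.0% and by at least 40 points in 12.4% of them, and lower by at least 10 points in 81 of the 595. By size of the difference towards neurons, Mef2a was at place 38 and Mef2d at place 404.

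**Figure D3:**
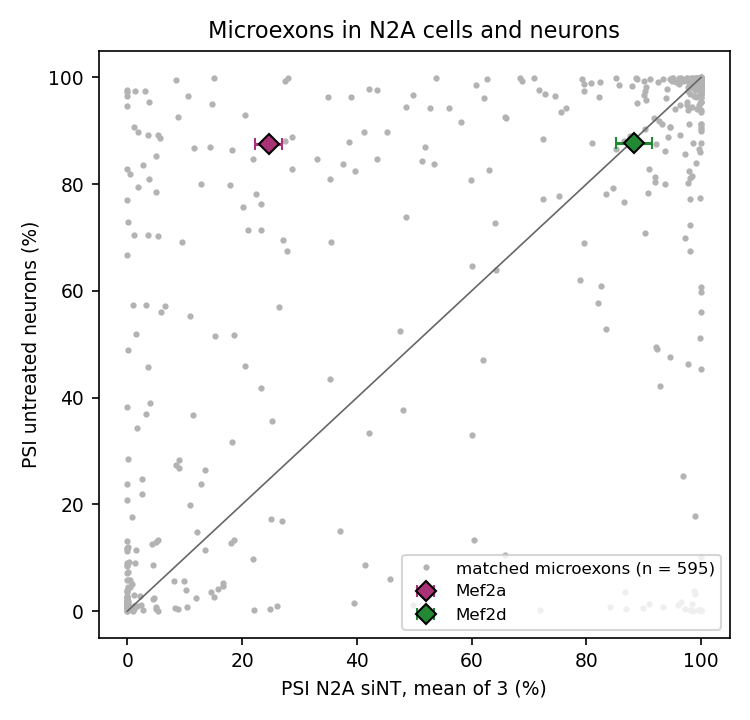
PSI in percent of 595 microexons in N2A siNT cells (x axis, mean of 3 samples) and in untreated neurons (y axis, the authors' combined value), with the line of equal values; horizontal bars on the Mef2 points are 1 SD over the siNT samples. Mef2a lies far above the line (24.6% and 87.4%) and Mef2d on it (88.4% and 87.6%).

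**Figure D4:**
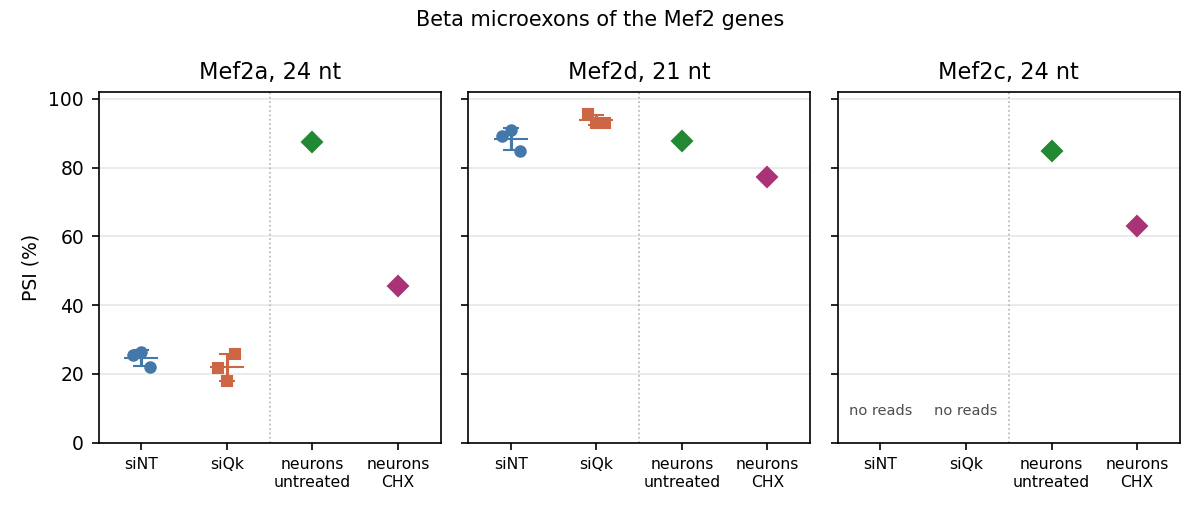
PSI in percent of the β microexons (y axis) in the 4 groups (x axis): N2A samples as points with mean and SD (n = 3), neurons as the authors' combined value with no error. Mef2a is low in N2A cells and high in untreated neurons, Mef2d is above 84% in all but cycloheximide neurons, and Mef2c had no reads in N2A cells.

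Microexons of other genes with values most like those of Mef2a over the 6 N2A samples and both neuron groups were sought among 252 microexons by root mean square difference in PSI. The closest was a 27 nt exon of AU019823, at 6.45 points, with 22.5% in siNT, 24.4% in siQk, 78.1% in untreated and 41.2% in cycloheximide neurons. Exons of Tpd52l2 (10.1 points), Src (10.6 points), Dclk2 (10.6 points) and Ipo11 (12.1 points) followed. The Ipo11 exon, at 86.8% untreated and 46.2% with cycloheximide, shared the neuron values of Mef2a and was lower in N2A cells, at 11.5% in siNT. For Mef2d the nearest were exons of Flna (4.51 points), Vav2 (4.56 points), Git1 (4.72 points), Baz2b (5.3 points) and Abi1 (5.33 points). Of these Vav2 had the neuron values 88.2% and 67.8%, and Flna had 80.5% and 83.5%.

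In the α region Mef2a used both exons in N2A cells, the first more often. PSI of the 132 nt first exon was 61.9, 61.9 and 56.3 in siNT and 65.0, 61.3 and 64.7 in siQk. PSI of the 138 nt second exon was 42.0, 34.3 and 45.6 in siNT and 32.7, 40.7 and 35.9 in siQk. The siNT and siQk samples overlapped for both exons. Group means were 60.0 ± 3.24 and 63.7 ± 2.09 (SD, n = 3 each, limma adjusted p = 0.817) for the first exon and 40.6 ± 5.73 and 36.5 ± 4.05 (limma adjusted p = 0.832) for the second. The sum of both ran from 96.3 to 103.8 in the 6 samples. In the junction reads, the exclusion count of each exon equalled a count of its partner's inclusion junctions in every sample (119 and 182 reads in siNT sample 1), so a sum near 100 follows from the counting, and transcripts with both exons or with neither are not measured by it.

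Mef2d used mostly its first α exon. This exon, 138 nt at chr3:88158034-88158171, had a PSI of 86.8, 90.3 and 92.6 in siNT and 82.2, 93.7 and 92.1 in siQk, with siQk sample 1 the lowest and siQk sample 2 the highest of all. Its means were 89.9 ± 2.94 and 89.3 ± 6.22 (SD, n = 3 each, limma adjusted p = 0.995). The tested event at the place of the second α exon, which the table lists as chr3:88158221-88158300, had a PSI of 2.21 to 3.57 in all samples (limma adjusted p = 0.969). With the first exon it summed to 85.2 to 96.6, and the splice forms behind the rest were not tested. GENCODE M21 lists the second α exon of Mef2d with 135 nt. Of the reads at its 5′ splice sites, 5 to 25 per sample and too few to test, the site of the 135 nt form took 60.0% to 100%. The site of the listed 80 nt form had 0% in every sample but siQk sample 3, where it had 13.2%. In muscle this second exon is the one known to mark a tissue-specific Mef2d isoform.

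**Figure D5:**
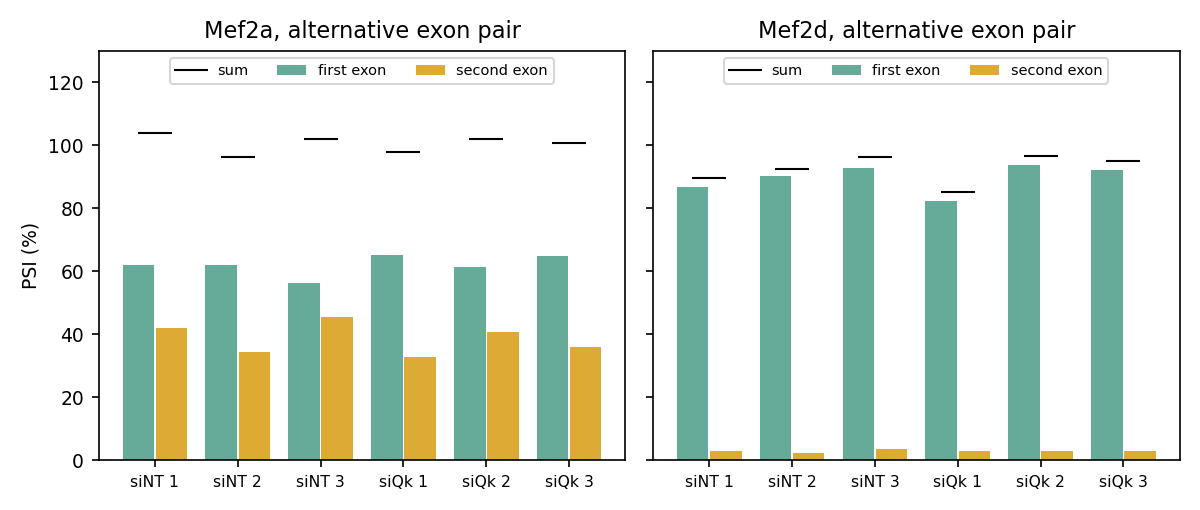
PSI in percent (y axis) of the first and second α exons in each N2A sample (x axis), as bars from 0, with a line at their sum, for Mef2a (left) and Mef2d (right). Mef2a splits between both exons with sums of 96.3 to 103.8. Mef2d takes the first exon at 82.2 or more, with sums of 85.2 to 96.6. Its second bar is the tested event chr3:88158221-88158300 at the place of the second α exon, at 3.57 or less.

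Between the α and β regions Mef2d has a 57 nt exon, at chr3:88159536-88159592, with a mean PSI of 97.6 in siNT and 97.3 in siQk (limma adjusted p = 0.928). A 150 nt exon of Mef2d at chr3:88143350-88143499 is not an exon of GENCODE M21. Its PSI was 10.2, 8.19 and 15.8 in siNT and 7.55, 12.2 and 12.1 in siQk, and the groups overlapped (limma adjusted p = 0.968). Nearly all reads that included it lay on its downstream junction, 40 to 181 per sample, while its upstream junction had 0 to 9. PSI averages over both junctions, so for this exon it does not describe an internal exon spliced at both ends.

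Mef2a also has a 20 nt event at chr7:67348418-67348437, within an intron of the 5′ untranslated region and not an exon of GENCODE M21. Its PSI was 2.07, 0 and 0 in siNT and 2.81, 15.6 and 3.36 in siQk. The groups did not overlap, and siQk sample 2 stood far above the others. That sample had 2 and 5 reads on the inclusion junctions beside 51 that skipped, which as counted is 6.42%. The other siQk samples had at most 3 on either junction. Inclusion reads were 0 and 2 beside 127 that skipped in siNT sample 1, and 1 and 1 beside 93 in siQk sample 1. As counted these are 0.781% and 1.06%. The log2 ratio difference was 3.09 (SE 1.05), with an unadjusted limma p of 0.0145 and an adjusted p of 0.331. From junction reads as counted the means were 0.26% and 2.92% (limma adjusted p = 0.38). Without siQk sample 2 the mean PSI was below 2 and the event was no longer tested. The nearest of 409 other microexons over the 6 N2A samples were in Taf1 (3.06 points) and Myo7a (3.11 points). Exons of Srrm3 (3.23 points), Tsg101 (3.24 points) and Myo9b (3.4 points) followed. They were picked by these same 6 values among events past the same filter. Their means of 2.7% or less in siNT and 4.9% or more in siQk therefore follow from the choice.

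The last intron of Mef2d was retained in about as many transcripts as spliced it. PSI of this 287 nt intron, chr3:88168345-88168631, was 51.1, 56.6 and 52.3 in siNT and 51.6, 55.5 and 52.6 in siQk. The groups lay on top of each other, at 53.4 ± 2.91 and 53.2 ± 2.02 (SD, n = 3 each, limma adjusted p = 1.0). Both ends of the intron were covered. In siNT sample 1, 269 reads crossed its 5′ end, 239 its 3′ end and 246 were spliced. Of all 17664 tested introns, 2.92% had a mean of at least 50% in siNT. In GENCODE M21 one Mef2d transcript, Mef2d-204, reads into this intron and its coding sequence ends 6 bases past the intron's start. A 5′ splice site 114 nt inside the same intron was used at 3.55% to 5.98% in siNT and 2.21% to 5.72% in siQk (limma adjusted p = 0.972).

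By deposited PSI, the largest difference among tested Mef2 events was in the 1576 nt intron chr3:88161382-88162957, which surrounds the Mef2d β microexon. Its PSI was 10.4, 10.3 and 5.42 in siNT and 18.9, 18.8 and 15.2 in siQk, with no overlap. The means were 8.72 ± 2.86 and 17.6 ± 2.09 (SD, n = 3 each), a log2 ratio difference of 1.20 (SE 0.50), with an unadjusted limma p of 0.0183 and an adjusted p of 0.847. Splicing of this intron in 1 step joins the exons on either side of the microexon, so the event is not independent of the microexon's own PSI. Reads spliced across it numbered 56, 26 and 96 with siNT and 15, 13 and 39 with siQk. Reads across either end of the intron numbered 1 to 11 in each sample of both groups. These counts are not scaled to depth, which was lower in siQk samples 1 and 2 than in any siNT sample.

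The remaining events were small. The 1508 nt Mef2d intron before the first α exon, chr3:88156526-88158033, was retained at 2.93%, 1.59% and 2.53% in siNT and 3.19%, 4.62% and 3.91% in siQk, with no overlap and a limma adjusted p of 0.988. The 303 nt Mef2d intron at chr3:88167735-88168037 had means of 2.38% and 2.07%. A Mef2a intron of 32886 nt in the 5′ untranslated region had means of 6.35% and 6.30%, but its reads came from the 5′ end alone, with 5 to 15 there and 0 at the 3′ end in every sample. At that 5′ end lies a splice site that lengthens the untranslated exon by 20 nt. It was used at 16.5%, 22.2% and 19.8% in siNT and 17.6%, 17.1% and 12.9% in siQk (limma adjusted p = 0.944), and the groups overlapped.

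Of 41 genes for Mef2 cofactors and upstream regulators, 37 had enough coverage to test. Of these 0 rose and 0 fell at a limma adjusted p under 0.05, beside 4.21% of all 10851 tested genes called. Their median log2 fold change was -0.02, beside 0.02 for all genes. The class IIa deacetylases, which repress Mef2, had mean coverage of 56.6 and 52.0 CPM for Hdac4, 417 and 418 CPM for Hdac5, 49.8 and 49.3 CPM for Hdac7 and 42.0 and 42.7 CPM for Hdac9 in siNT and siQk. Mapk14, the p38 kinase gene, had 114 and 105 CPM. The limma adjusted p of these 5 genes ran from 0.647 to 0.996. Of 265 tested splicing events in the list, 77 of them exons, 0 were called. Across all genes 1.18% of exons and 0.101% to 0.113% of the other event classes were called.

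Of 30 listed Mef2 target genes 15 could be tested, with a median log2 fold change of 0.00. Among the 15, 1 rose, beside 4.21% of all tested genes called in either direction. Des, which encodes the muscle intermediate filament desmin, had 1.52, 1.24 and 1.66 CPM in siNT and 3.17, 2.67 and 2.72 CPM in siQk. All siQk samples were higher, on a low level of coverage (log2 fold change 0.77, SE 0.15, limma adjusted p = 0.0319). Des is also one of the muscle markers, whose summed level is given above. The call was lost when any sample but siQk sample 1 was left out, with adjusted p of 0.0407 to 0.135 over the 6 such fits.

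Among 23 splicing factors known to act on short or neural exons, 20 were tested for coverage, with a median log2 fold change of -0.09. Beside 4.21% of all tested genes called, 2 of the 20 fell. These were Qk itself, the target of the siRNA, and Ptbp2, the neural polypyrimidine tract binding protein. Ptbp2 had 194, 181 and 173 CPM in siNT and 133, 133 and 128 CPM in siQk, with no overlap (log2 fold change -0.48, SE 0.07, limma adjusted p = 0.0154). Its call was lost without siNT sample 2, siQk sample 2 or siQk sample 3, at up to 0.0989. Of 114 tested events in these genes 4 were called, 3 of 44 exons and 1 of 70 other events, beside 1.18% of all exons and 0.113% of all introns. A 36 nt exon of Mbnl2 rose from 8.21% to 54.0%, and it was called whichever sample was left out. A 54 nt exon of Mbnl1 fell from 79.1% to 59.0% and was called in 2 of the 6 fits that left out 1 sample. Mbnl1 and Mbnl2 encode muscleblind splicing regulators. In Srrm3, a regulator of microexons, a 79 nt exon fell from 65.99% to 3.84% and lost its call without siNT sample 2. The intron that contains it fell from 14.99% to 3.39% and was called in 1 of the 6 fits. These 2 Srrm3 events are not independent.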

How the data were processed

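Stranded polyadenylated RNA libraries with long inserts were sequenced, per the labels' protocols. The submitters' processing notes name the build mm10. The software is not given by the sources used here. The authors deposited a percent spliced in for every event in the 6 N2A samples, laid out like vast-tools output, with a text cell of another kind that holds the junction reads and a pair of inclusion and exclusion reads. The pair sums to the junction reads (within 0.1) in 100.0% of exon values. Their neural microexon list and their neuron table, laid out like Whippet output, hold deposited PSI and probability as a fraction with replicates combined, and these are printed in percent. Of the neuron columns, the first was read as untreated, since the control comes first in the table's name, which the header does not settle. The authors deposited differences as control minus treated (for the list as a score), and the sign was turned here.

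Inclusion and exclusion reads, each plus 0.5, were compared as a log2 ratio with limma 3.58.1 in R 4.3.3 (robust, two-sided, with a variance trend on each event's averaged log sampling variance). Benjamini-Hochberg adjustment ran over all events of a class. Microexons have 3 to 27 nt. Gene coverage is the sum of exon-event reads scaled to the library total (CPM), tested as log2(CPM + 0.5) with limma where a gene's mean reached 20 reads. A read can serve several events, and this scale understates changes of low genes. Depth was 59997671, 37883497 and 78479832 exon-event reads for siNT and 33761573, 26595944 and 80481173 for siQk, by sample number. Reads are not counted by molecule, so the limit for a count of 0 covers counting error only.

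The members and lists were chosen with earlier results of these data known. By the naming rule, every tested Mef2 event, every Mef2 row of the 2 other tables, the 5 nearest microexons, the listed genes that were called and 5 cofactor genes were named. Of the called listed events, 1 is not reported here, nor is 1 exon sequence. Mef2b was added after its values were seen. Exon positions and sequences come from GENCODE M21 on the same assembly, aligned with Biopython 1.88. Tables were handled in pandas 2.3.3 (Python 3.11.15), with plots from matplotlib 3.10.9, and scripts were tested on simulated data. Alternatives covered each sample left out, the replicate number as a block, filters, pseudocounts, scaling, weights and thresholds, and, added after the data were seen, the junction reads as counted.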

Additional observations from a re-analysis of the deposited data

How the results depend on the processing

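No tested Mef2 event and neither Mef2 gene's coverage was called under the 15 alternatives for splicing or the 10 for coverage. With each sample left out in turn, the difference of the Mef2d β microexon was 3.75 to 6.83 points and that of Mef2a was -4.71 to -0.76 points. With junction reads as counted, these were 10.57 and -1.68 points, and the other settings do not enter a difference of PSI. Limma adjusted p for Mef2d ran from 0.0999 to 0.92 over all 15. In the listed genes, 5 events were called. This became 2 to 3 without siNT sample 2, siNT sample 3 or siQk sample 2, 12 at 15 points with no p-value, and 8 with junction reads as counted, an alternative added after the data were seen. The listed genes called for coverage numbered 3, and 1 to 8 when 1 sample was left out (1 without siNT sample 2, siQk sample 2 or siQk sample 3, and 8 without siQk sample 1). With the replicate number as a block, listed genes called for coverage became 9, listed events 4, and Mef2 events and genes stayed at 0. The numbers do not clearly pair the samples: the correlations of same-numbered deviations were 0.139, 0.019 and 0.116, and siQk sample 2 correlated best with siNT sample 3 (0.045). In neurons, 2 Mef2 microexons were counted, and 1 at 15 points. The cause of these shifts was not tested. The 1576 nt Mef2d intron had 19 reads in siQk sample 2 and drops out at a minimum of 20 reads. The planned search for motif letters in flanking introns was not run, since it needs a genome sequence. Too few reads to be tested were found for 51 Mef2 events, 39 of them in Mef2c, which was not detected.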
